A study of Mus musculus with 6 samples.

Results

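The TNF superfamily is a set of 39 genes here, 16 ligands and 23 receptors, out of the 33697 genes counted in single cells sorted from the intestinal lamina propria of Flare-TSLP mice. Members were chosen by symbol alone: Tnfsf or Tnfrsf followed by digits and at most 1 letter, together with Tnf, Lta, Ltb, Ltbr, Fas, Fasl, Cd40 and Cd40lg. Flare-TSLP mice are C57BL/6 animals with a reporter allele of the cytokine gene Tslp, which can also be deleted by Cre, and the red fluorescent protein tdTomato marks cells in which the locus is active. Peyer's patches and the epithelial fraction were removed, and live tdTomato+ cells were sorted and captured by the 10x 3′ method. There were 2 libraries from the lamina propria of the proximal jejunum (proximal small intestine), 2 from the distal ileum (distal small intestine), with 1 library of the cecum and 1 of the large intestine. All groups share the allele and the sort, no treatment is labelled, and the age of the mice was not used here. The allele came from 1 clone of embryonic stem cells. Each library held cells under 3 hashtag antibodies, which the paper used for multiplexing, with 3 or more biological samples per small intestinal tissue. The labels do not pair hashtags with mice, so a library was taken as 1 sample and its p-values measure the spread between libraries.

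TNF superfamily ligands are mostly membrane-bound trimers that gather their receptors into clusters. Receptors with a death domain, such as Fas and Tnfrsf1a, can lead to cell death or inflammation, whereas others bind TRAF adaptors and activate NF-κB. In the gut, lymphotoxin and RANK signals build lymphoid tissue, and BAFF and APRIL sustain B cells and plasma cells.

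Levels are CPM, the UMIs of a gene in every 1000000 UMIs of all genes, summed over the cells of a class in a library. The libraries held 109675337 to 206827504 UMIs, and 102534 cells passed the filters. Classes were gated on marker genes that include no member, so no member's level was used to draw a class, while levels of the markers themselves only describe the gates. The gates gave 14127 cells like lymphatic endothelial cells (LEC-like), 1262 blood endothelial-like, 63249 fibroblast-like, 528 pericyte-like, 830 smooth muscle- or myofibroblast-like, 360 T cell- or ILC-like, 878 B or plasma cell-like and 242 myeloid-like cells. The LEC marker Prox1 was at 962 to 1188 CPM in LEC-like sums and at most 8.72 in fibroblast-like sums. Within the fibroblast-like cells, gates for trophocytes (22593 cells), subepithelial fibroblasts (4310) and universal fibroblasts (1720) were used, and 50.8% of the fibroblast-like cells fell in none of the subsets. The gate for Lgr5+ villus tip telocytes was used in the small intestine only, where Lgr5 stood at 63 to 839 CPM, since the cells it took in the cecum and large intestine had 21.5 and 15.3. A level was taken only where a library had at least 20 cells of the class. Tslp itself was at 0.468 to 1.51 CPM in LEC-like and 0.712 to 2.78 in fibroblast-like sums, and 0 Tslp UMIs were found in T cell- or ILC-like sums, which allows up to 1.58 CPM. The barcodes that 2 libraries shared were 0.323% to 0.609% of the smaller library's cells.

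Of the 39 members, 33 reached a mean of 10 CPM in at least 1 class measured in 3 or more libraries. The number at this level was 11 in LEC-like, 13 in blood endothelial-like, 9 in fibroblast-like, 8 in pericyte-like, 19 in T cell- or ILC-like, 15 in myeloid-like and 8 in B or plasma cell-like cells. Of the 16 ligands, 9 reached it in T cell- or ILC-like cells against 2 in fibroblast-like cells, namely Tnfsf12 and Tnfsf13b. Of the receptors, 10 of 23 were at this level in blood endothelial-like, 10 in T cell- or ILC-like and 7 each in LEC-like and fibroblast-like cells. These counts are descriptions without a test, and classes with few cells carry more counting error. The share of all genes at this level in each class was not counted. T cell- or ILC-like levels come from the small intestine only.

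**Figure D1:**
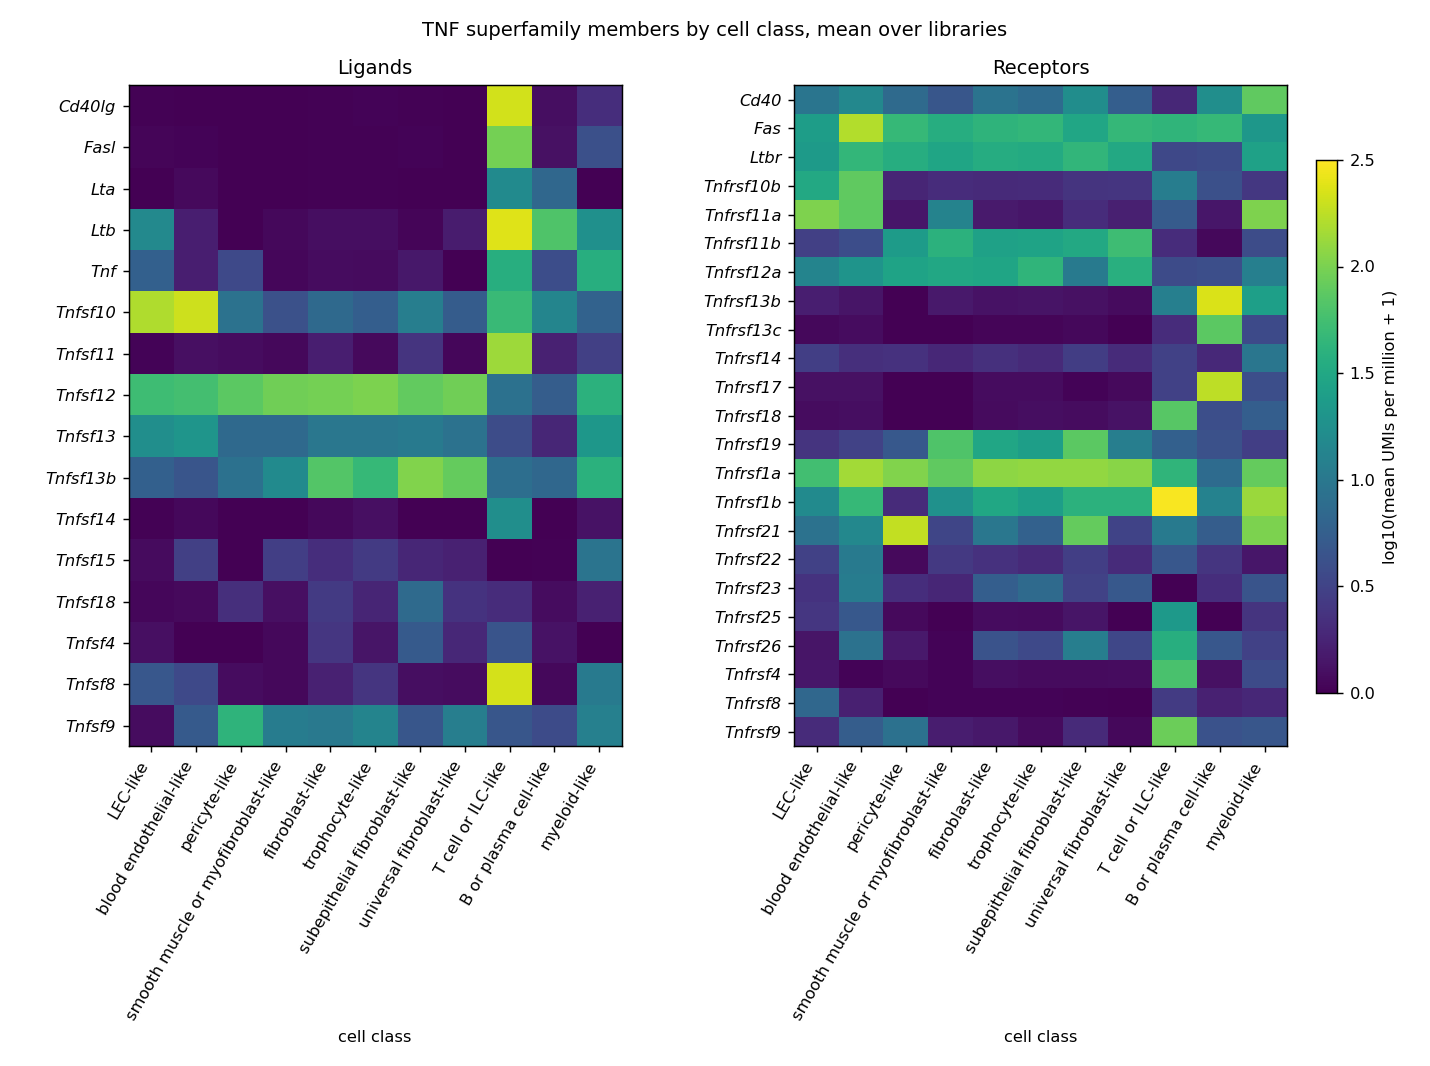
Mean level of each TNF superfamily member by cell class, as the log10 of the mean CPM over libraries plus 1; ligands on the left, receptors on the right, classes on the horizontal axis. Along a row, Tnfrsf11a and Tnfsf10 are bright in the endothelial columns, and Tnfrsf11a in the myeloid-like column too. Tnfsf13b is bright in the fibroblast columns and Cd40lg in the T cell- or ILC-like column. Tnfrsf21 is brightest in the pericyte column, followed by the myeloid-like one.

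LEC-like cells were set against fibroblast-like cells of the same library in all 6 libraries, to ask which ligands and receptors differ between the main tdTomato+ lineages. Of 36 members tested, 12 were higher and 17 lower in LEC-like cells at an adjusted p under 0.05 (edgeR), beside 25.9% and 38% of all 19714 genes tested. The median log2 difference was -0.08 over the members tested and -0.14 over all genes. The members' shares, 12 and 17 of 36, stood near those of all genes.

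Tnfrsf11a encodes RANK, the receptor for RANKL. It was at 95.8 and 90.5 CPM in the proximal, 106 and 81.6 in the distal libraries, 112 for the cecum and 125 for the large intestine, against 0.0991 to 1 in fibroblast-like cells. Every LEC-like library lay above every fibroblast-like library (log2 difference 7.65 ± 0.41 (SE), edgeR adjusted p = 3.4e-07). At least 1 Tnfrsf11a UMI was found in 38.5% of LEC-like cells (exact binomial 95% interval 37.7% to 39.3%) and in 0.421% of fibroblast-like cells (0.372% to 0.474%), at median depths of 5992 and 8225 UMIs per cell. These intervals pool the cells of all libraries and leave out the spread between libraries. LEC-like cells held 83.7% of the 10297 Tnfrsf11a UMIs found in all gated lineages, a share that also depends on cell number. The 242 myeloid-like cells had a mean of 103 CPM, against 102 in the 14127 LEC-like cells. The ligand of this receptor, Tnfsf11 (RANKL), had 5 UMIs in all LEC-like sums and 0.0744 to 1.92 CPM in fibroblast-like sums (log2 difference -2.22 ± 0.59 (SE), edgeR adjusted p = 0.0091), a call that was lost with doublets kept (log2 0.83), with free RNA subtracted and with stricter gates. Tnfrsf11b (osteoprotegerin), the soluble decoy for RANKL, was also lower in LEC-like cells. It stood at 13.2 and 19.1 CPM in the proximal, 13.5 and 29.5 in the distal libraries, 33 for the cecum and 47.6 for the large intestine in fibroblast-like cells, against 0.624 to 6.55 in LEC-like cells (log2 difference -3.94 ± 0.20 (SE), edgeR adjusted p = 2.7e-07).

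Tnfsf10 encodes TRAIL, a ligand of death receptors. Its level in LEC-like cells was 168 and 175 CPM in the proximal, 172 and 191 in the distal libraries, 107 for the cecum and 140.4 for the large intestine, and 3.54 to 9.59 in fibroblast-like cells (log2 difference 4.62 ± 0.19 (SE), edgeR adjusted p = 6.9e-08). The mouse TRAIL receptor Tnfrsf10b was also higher in LEC-like cells, at 40.4 and 48.3 CPM in the proximal, 26.6 and 32.2 in the distal libraries, 27.5 for the cecum and 14 for the large intestine against at most 1.56 in fibroblast-like cells (log2 difference 4.94 ± 0.35 (SE), edgeR adjusted p = 2.1e-06). The adjoining receptor genes Tnfrsf22 and Tnfrsf23 on chromosome 7, decoy receptors for TRAIL, stayed under 6 CPM in LEC-like cells. Tnfrsf22, Tnfrsf23 and Tnfrsf26 are close relatives in sequence, and reads that fit several of them could be split or dropped in the counting.

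Ltb encodes the membrane subunit of the lymphotoxin heterotrimer. It was at 12.7 and 14 CPM in the proximal, 19.1 and 11.6 in the distal libraries, 17 for the cecum and 10.3 for the large intestine in LEC-like cells and at 0.136 to 0.35 in fibroblast-like cells (log2 difference 5.67 ± 0.22 (SE), edgeR adjusted p = 5.6e-08). Its partner Lta was not tested, with a mean of 0.00871 CPM in LEC-like cells. Tnf stood at 2.34 to 8.1 CPM in LEC-like and 0.119 to 0.334 in fibroblast-like cells (log2 difference 4.54 ± 0.31 (SE), edgeR adjusted p = 1.7e-06). Tnfrsf8 (CD30) was at 4.05 to 7.49 in the LEC-like libraries against 0.00791 to 0.128 in the fibroblast-like ones (log2 difference 6.52 ± 0.34 (SE), edgeR adjusted p = 3.1e-07), and 91.3% of its 623 UMIs came from LEC-like cells. Its ligand gene Tnfsf8 differed less (log2 difference 2.28 ± 0.22 (SE), edgeR adjusted p = 2.0e-05), with 11.3 CPM in the cecum, 4.21 in the large intestine and 1.25 to 2.15 in the small intestine.

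Lymphoid cells make Ltb, Tnf and Tnfsf8 too, so their markers were read in the same sums. The 8 markers of T cells and ILCs summed to 14.6 to 71.6 CPM in LEC-like cells, 2.91 to 5.98 in fibroblast-like cells and 5021 to 5500.0 in T cell- or ILC-like cells, and none of the 8 was at 0 in LEC-like cells. In LEC-like cells the sum was 68 for the cecum and 71.6 for the large intestine, against 14.6 to 21.7 in the small intestine, and these are the same libraries in which Tnfsf8 was highest. In the 4 small intestinal libraries the LEC-like sum of these markers was 0.291% to 0.394% of that in T cell- or ILC-like cells of the same library, whereas Ltb was 5.29% to 6.91% and Tnf 7.63% to 22.5% of it. For Tnfsf8 the share was 0.556% to 1.16%, and the part of lymphoid or free RNA in these levels was not tested. Ptprc, which all leukocytes express, was at 0 to 3.33 CPM in LEC-like and 0.285 to 1.92 in fibroblast-like sums.

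Other members were lower in LEC-like cells. Tnfsf13b (BAFF), a survival factor for B cells, was at 63.2 and 78.2 CPM in the proximal, 59.6 and 75.4 in the distal libraries, 34.4 for the cecum and 93.4 for the large intestine in fibroblast-like cells and at 2.43 to 7.02 in LEC-like cells (log2 difference -3.90 ± 0.10 (SE), edgeR adjusted p = 1.2e-08). Tnfsf13 (APRIL), which sustains plasma cells, ran the other way by a smaller margin, at 12.3 to 23.5 in LEC-like and 7.84 to 9.9 in fibroblast-like cells (log2 difference 0.72 ± 0.10 (SE), edgeR adjusted p = 2.5e-04). Tnfsf13 and Tnfsf12 lie next to each other on chromosome 11 on the same strand (69573403-69576610 and 69577076-69586928, GRCm39). Tnfsf12 (TWEAK) had means of 51.9 and 95 CPM in LEC-like and fibroblast-like cells (log2 difference -0.98 ± 0.08 (SE), edgeR adjusted p = 3.7e-06). Its receptor Tnfrsf12a (Fn14) was at 4.81 and 6.61 CPM in the proximal, 7.69 and 6.29 in the distal libraries, 33.2 for the cecum and 16.8 for the large intestine in LEC-like cells, below the fibroblast-like level of the same library in every case (log2 difference -1.37 ± 0.09 (SE), edgeR adjusted p = 1.5e-06). Tnfrsf19 (TROY), Tnfsf9 (the CD137 ligand), Tnfrsf1a, Fas and Ltbr were lower in LEC-like cells in all 6 libraries too. For Tnfrsf19 the difference was -4.30 ± 0.30, edgeR adjusted p = 2.1e-06, for Tnfsf9 -4.93 ± 0.28, edgeR adjusted p = 4.5e-07 and for Tnfrsf1a (TNFR1) -1.22 ± 0.09, edgeR adjusted p = 3.7e-06 on the log2 scale. Fas had means of 23.5 and 40.9 and Ltbr, the lymphotoxin receptor, 21.8 and 34 CPM. Tnfrsf1b was called lower in LEC-like cells as well (log2 difference -1.14, edgeR adjusted p = 0.0071). The level of Cd40 was 3.24 to 13.6 in LEC-like and 5.04 to 14.8 in fibroblast-like cells, and the difference did not pass the test (log2 difference 0.18 ± 0.22 (SE), edgeR adjusted p = 0.51), though it did without the cecum (adjusted p = 0.039). Tnfsf4, Tnfsf15, Tnfsf18, Tnfrsf23 and Tnfrsf26 were called lower at means of at most 4.56 CPM in fibroblast-like cells. Tnfrsf25 (DR3) was higher in LEC-like cells (2.85 ± 0.32, edgeR adjusted p = 4.5e-05). The calls of Tnfrsf9, Tnfrsf13c, Tnfrsf14 and Tnfsf14 were each lost under 2 or more alternatives.

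**Figure D2:**
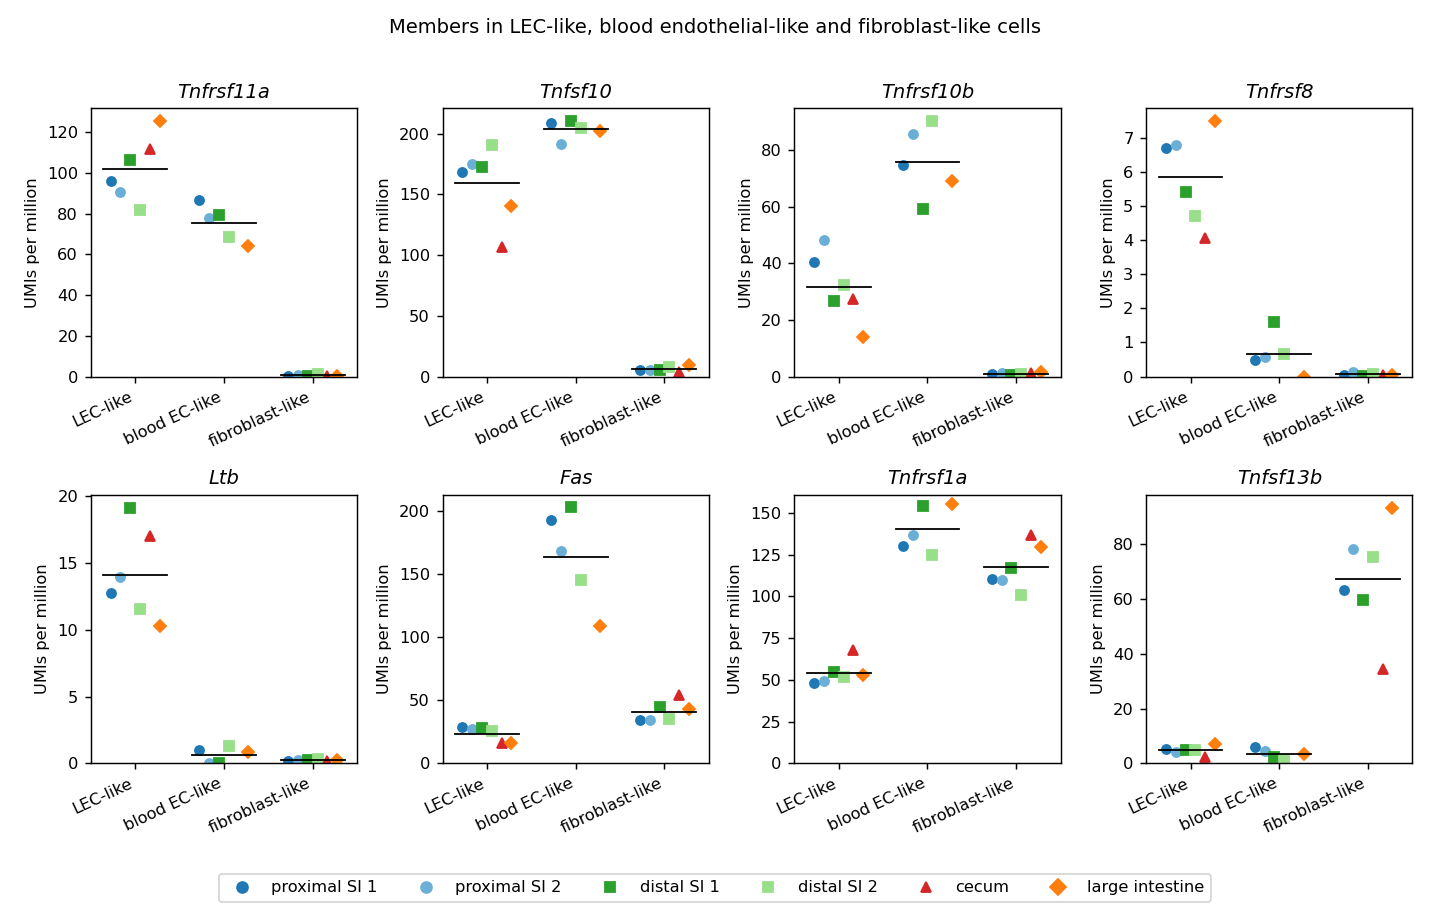
Level of 8 members in LEC-like, blood endothelial-like and fibroblast-like cells, in CPM on a linear axis from 0; a point is 1 library, coloured by region, and a bar is the mean. Tnfrsf11a, Tnfsf10 and Tnfrsf10b are high in both endothelial classes, Ltb and Tnfrsf8 in LEC-like cells, Fas in blood endothelial-like cells and Tnfsf13b in fibroblast-like cells.

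The promoters of Ltb, Tnfrsf8 and Tnfrsf11a, 3 of the 11 members higher in LEC-like cells that have an entry in the RefSeq promoter table, are shown because their differences were the largest among those 11, and that of Tnfrsf21 because it separates the fibroblast-like subsets described further on. Of the 39 members, 30 had a promoter in the RefSeq table (GRCm38.p6, 250 bases before to 50 after the start, printed in the direction of transcription). Capitals mark the letters of a match to GGACTTTCC (an NF-κB motif) or TGANTCA (an AP-1 motif) on either strand. GGACTTTCC was found in 0.340% of all 27025 promoters and, among the 30 members, in Ltb, where it lies on the opposite strand. TGANTCA was found in 7.93% of promoters and in 5 of the 30 members: Fas, Tnfrsf8, Tnfsf13, Tnfsf13b and Tnfsf14. Of the other 8 members higher in LEC-like cells, Tnfsf13 held a match and Tnf, Tnfsf8, Tnfsf10, Tnfrsf9, Tnfrsf13c, Tnfrsf14 and Tnfrsf25 held none, and neither did Tnfrsf11a. The ETS letters CCGGAAGT, in 4% of promoters, were in 0 of the 30. A match describes letters and is not shown to be a bound site, and the promoter lines give the window of Ltb at chr17:35194257-35194556 (plus strand), of Tnfrsf8 at chr4:145315115-145315414 (minus strand), of Tnfrsf11a at chr1:105780473-105780772 (plus strand) and of Tnfrsf21 at chr17:43016305-43016604 (plus strand).
Ltb: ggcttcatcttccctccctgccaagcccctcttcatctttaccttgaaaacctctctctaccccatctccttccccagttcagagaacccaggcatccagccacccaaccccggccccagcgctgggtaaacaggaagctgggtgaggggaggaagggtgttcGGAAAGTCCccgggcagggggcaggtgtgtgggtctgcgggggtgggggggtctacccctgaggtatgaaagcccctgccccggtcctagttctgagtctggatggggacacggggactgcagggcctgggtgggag
Tnfrsf8: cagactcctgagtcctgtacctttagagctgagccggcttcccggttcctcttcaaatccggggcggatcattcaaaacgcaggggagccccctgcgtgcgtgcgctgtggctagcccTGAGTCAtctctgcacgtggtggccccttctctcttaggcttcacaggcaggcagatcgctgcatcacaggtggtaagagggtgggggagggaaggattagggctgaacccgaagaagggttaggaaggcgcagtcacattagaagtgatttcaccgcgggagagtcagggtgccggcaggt
Tnfrsf11a: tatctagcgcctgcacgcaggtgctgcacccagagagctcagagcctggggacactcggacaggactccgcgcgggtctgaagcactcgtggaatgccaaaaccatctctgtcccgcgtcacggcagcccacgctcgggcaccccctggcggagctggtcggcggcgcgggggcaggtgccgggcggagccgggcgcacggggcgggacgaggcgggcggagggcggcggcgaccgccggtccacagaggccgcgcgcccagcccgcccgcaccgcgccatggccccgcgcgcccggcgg
Tnfrsf21: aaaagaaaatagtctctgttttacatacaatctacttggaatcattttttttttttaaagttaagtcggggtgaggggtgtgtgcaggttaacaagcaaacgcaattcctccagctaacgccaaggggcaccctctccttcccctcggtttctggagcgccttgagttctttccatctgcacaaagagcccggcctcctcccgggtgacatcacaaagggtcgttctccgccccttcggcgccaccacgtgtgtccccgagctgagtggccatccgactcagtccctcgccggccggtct

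Blood endothelial-like cells were compared with LEC-like cells in the 5 libraries with at least 20 cells of each, which leaves out the cecum. Of 25 members tested, 3 were higher and 16 lower in LEC-like cells, beside 27.3% and 28.3% of all 12674 genes tested. The median log2 difference was -1.02 over the members tested and 0.02 over all genes. The 3 that were higher were Ltb (4.13 ± 0.41, edgeR adjusted p = 2.8e-05), Tnfrsf8 (3.23 ± 0.45, edgeR adjusted p = 2.5e-04) and Tnf (2.84 ± 0.63, edgeR adjusted p = 0.0039). In blood endothelial-like cells these genes had 7, 6 and 5 UMIs in all, so that the size of each difference rests on few counts.

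Fas, Tnfrsf1a, Tnfrsf10b, Tnfrsf21 and Tnfrsf25, which carry a death domain, were called higher in blood endothelial-like cells. So were Tnfsf9 (log2 difference -3.87, edgeR adjusted p = 1.1e-04), Tnfrsf9 (-2.37, edgeR adjusted p = 0.0045), Tnfrsf12a (-1.35, edgeR adjusted p = 5.8e-05) and Cd40 (-0.68, edgeR adjusted p = 0.010). The decoy Tnfrsf11b did not pass (log2 difference -1.02 ± 0.53 (SE), edgeR adjusted p = 0.13), though it did without the large intestine (edgeR adjusted p = 0.016). Fas was at 192 and 169 CPM in the proximal, 203 and 145 in the distal libraries and 108 in the large intestine in these cells, against 16.4 to 28.8 in LEC-like cells of the same libraries (log2 difference -2.80 ± 0.09 (SE), edgeR adjusted p = 1.6e-08). Tnfrsf1a was at 130.2 and 137 CPM in the proximal, 154 and 125 in the distal libraries and 155 in the large intestine, again above every LEC-like library (log2 difference -1.54 ± 0.08 (SE), edgeR adjusted p = 3.8e-07). Tnfrsf10b reached 59.2 to 90.4 CPM in blood endothelial-like cells (log2 difference -1.32 ± 0.18 (SE), edgeR adjusted p = 2.1e-04). Tnfrsf1b (TNFR2), which has no death domain, was at 40.3 to 50.3 (log2 difference -1.54 ± 0.27 (SE), edgeR adjusted p = 0.0011), and its LEC-like level was 1.4 in the large intestine against 14.3 to 23.7 in the small intestine. The decoy-type receptors of chromosome 7 were higher as well, with Tnfrsf22 at 1.93 and 9.52, Tnfrsf23 at 1.4 and 10.2 and Tnfrsf26 at 0.48 and 7.67 CPM (LEC-like against blood endothelial-like means). The lymphotoxin receptor Ltbr was at 35.8 to 52.8 (log2 difference -1.16 ± 0.10 (SE), edgeR adjusted p = 1.3e-05).

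RANK and TRAIL transcripts were found in both endothelial classes. Tnfrsf11a was at 86.5 and 77.9 CPM in the proximal, 79.2 and 68.4 in the distal libraries and 64.1 in the large intestine in blood endothelial-like cells, and the difference from LEC-like cells of 0.27 ± 0.11 (SE) did not pass the test (adjusted p = 0.066). Without the filter on low counts it did (adjusted p = 0.0052). Tnfsf10 was 191 to 210.4 CPM in blood endothelial-like cells and -0.37 ± 0.09 (SE) in difference (edgeR adjusted p = 0.0061), a call lost without the filter (adjusted p = 0.050). Tnfsf12 had means of 50.7 and 55.4 and did not pass (edgeR adjusted p = 0.052), but passed under 4 of 13 alternatives. The calls of Tnfrsf21 (without proximal replicate 1), Tnfrsf25 (without proximal replicate 2 and with stricter gates) and Tnfsf13 (without the filter) were lost. Markers of blood endothelium summed to 1423 CPM for the cecum and 1159 for the large intestine and to 2943 to 3457 in small intestinal libraries of LEC-like cells, on average 31.7% of the level in blood endothelial-like cells, and their part in the shared levels and in differences between regions was not tested.

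In the small intestine, subepithelial fibroblast-like and trophocyte-like cells were compared in all 4 libraries. Subepithelial fibroblasts line the epithelium, and trophocytes lie around the crypt base and supply stem cell factors. Of 26 members tested, 10 were higher and 7 lower in subepithelial fibroblast-like cells, beside 20% and 24.9% of all 16333 genes tested. The median log2 difference was 0.62 over the members tested and -0.02 over all genes.

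Tnfrsf21 (DR6), a receptor with a death domain, showed the widest separation of these classes among the members called. It was at 99 and 51.5 CPM in the proximal and 165 and 140.3 in the distal replicates in subepithelial fibroblast-like cells and at 2.27 to 4.09 in trophocyte-like cells (log2 difference 4.80 ± 0.20 (SE), edgeR adjusted p = 1.8e-07). Tnfrsf19 was at 97.4 and 85.8 CPM in the proximal and 102 and 105 in the distal replicates, against 28.1 to 43.5 (log2 difference 1.29 ± 0.08 (SE), edgeR adjusted p = 2.4e-06). The ligand Tnfsf13b was at 137 and 138 CPM in the proximal and 107 and 105 in the distal replicates and 49.1 to 57.2 (log2 difference 0.91 ± 0.10 (SE), edgeR adjusted p = 8.9e-05). The libraries of the classes did not overlap for any of these 3 genes.

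Cd40 and the ligand genes Tnfsf4 and Tnfsf18 were higher on the subepithelial side. Cd40, the receptor for the T cell ligand CD40L, was at 14 and 17.6 CPM in the proximal and 14.1 and 20.6 in the distal replicates, against 3.41 to 4.29 (log2 difference 1.92 ± 0.15 (SE), edgeR adjusted p = 1.1e-05). Tnfsf4 (OX40 ligand) had means of 4.68 and 0.475 and Tnfsf18 (GITR ligand) of 7.23 and 0.867 CPM (3.11 ± 0.36, edgeR adjusted p = 1.2e-04 and 2.82 ± 0.29, edgeR adjusted p = 5.8e-05). Both ligands act on receptors of T cells and stayed under 9 CPM in every small intestinal library of subepithelial fibroblast-like cells. Tnfrsf26 was at 13 to 14.1 against 2.48 to 3.78 (log2 difference 1.75 ± 0.17 (SE), edgeR adjusted p = 4.5e-05). Tnfsf10 had means of 12.4 and 4.51 (1.15 ± 0.17, edgeR adjusted p = 5.5e-04). Tnfrsf1b and Tnfrsf11b were higher by 0.40 ± 0.09 (SE) and 0.65 ± 0.20 (SE) on the log2 scale (edgeR adjusted p = 0.0044 and 0.026). The call of Tnfrsf11b was lost without any of proximal replicate 1, distal replicate 1 and distal replicate 2, and with stricter gates, and that of Tnfrsf1b with stricter gates.

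On the trophocyte side, Tnfrsf12a was at 16.1 and 24.6 CPM in the proximal and 14.6 and 18.4 in the distal replicates, against 2.49 to 3.53 in subepithelial fibroblast-like cells (log2 difference -2.99 ± 0.15 (SE), edgeR adjusted p = 4.9e-07). Its ligand gene Tnfsf12 was higher in trophocyte-like cells by a smaller margin (means 76.3 and 97.6, subepithelial first; log2 difference -0.64 ± 0.07 (SE), edgeR adjusted p = 7.6e-05). Tnfsf9 stood at 9.74 and 13.6 CPM in the proximal and 21.4 and 15.5 in the distal replicates, against 1.55 to 4.15 (log2 difference -2.89 ± 0.17 (SE), edgeR adjusted p = 1.7e-06). Fas and Tnfrsf23 were lower in subepithelial fibroblast-like cells in all 4 libraries (-1.02 ± 0.13, edgeR adjusted p = 1.8e-04 and -2.17 ± 0.38, edgeR adjusted p = 0.0016). Tnfrsf1a had means of 115 and 112 CPM and a fitted log2 difference of -0.25 ± 0.08 (SE) (edgeR adjusted p = 0.027), so that the means before TMM scaling stood in the other order, and the call was lost without proximal replicate 1, without distal replicate 2, with stricter gates and without the library block. Tnfsf8, with 2 UMIs in subepithelial fibroblast-like cells, was called lower (edgeR adjusted p = 0.046) but not by DESeq2 or without proximal replicate 1, distal replicate 1 or distal replicate 2. Ltbr did not pass (means 40.3 and 28.7, edgeR adjusted p = 0.061).

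Villus tip telocyte-like cells, 29 to 55 per small intestinal library, were set against subepithelial fibroblast-like cells. Of 13 members tested, 1 was higher and 5 lower, beside 8.53% and 8.27% of all 9847 genes tested, with a median log2 difference of -0.23 over the members tested and -0.02 over all genes. Tnfrsf21 was at 36.6 and 9.23 CPM in the proximal and 10.9 and 22.2 in the distal replicates in telocyte-like cells (log2 difference -2.42 ± 0.30 (SE), edgeR adjusted p = 2.1e-05), and Tnfrsf19 at 13.1 and 30.8 CPM in the proximal and 3.62 and 33.4 in the distal replicates (log2 difference -2.27 ± 0.31 (SE), edgeR adjusted p = 6.8e-05). Tnfrsf11b, Tnfsf13b and Tnfrsf26 were lower in all 4 libraries (-1.74 ± 0.36, edgeR adjusted p = 0.0025, -0.85 ± 0.18, edgeR adjusted p = 0.003 and -3.98 ± 0.89, edgeR adjusted p = 0.0047), and Tnfrsf26 had 1 UMI in telocyte-like cells. Tnfsf10 was higher in 3 of 4 libraries (log2 difference 1.18 ± 0.38 (SE), edgeR adjusted p = 0.042), a call lost under 6 of 11 alternatives, among them leaving out proximal replicate 1, distal replicate 1 or distal replicate 2. Tnfsf11 was not tested: it stood at 40.8 CPM in distal replicate 2 and at 0 in the other 3 small intestinal libraries.

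**Figure D3:**
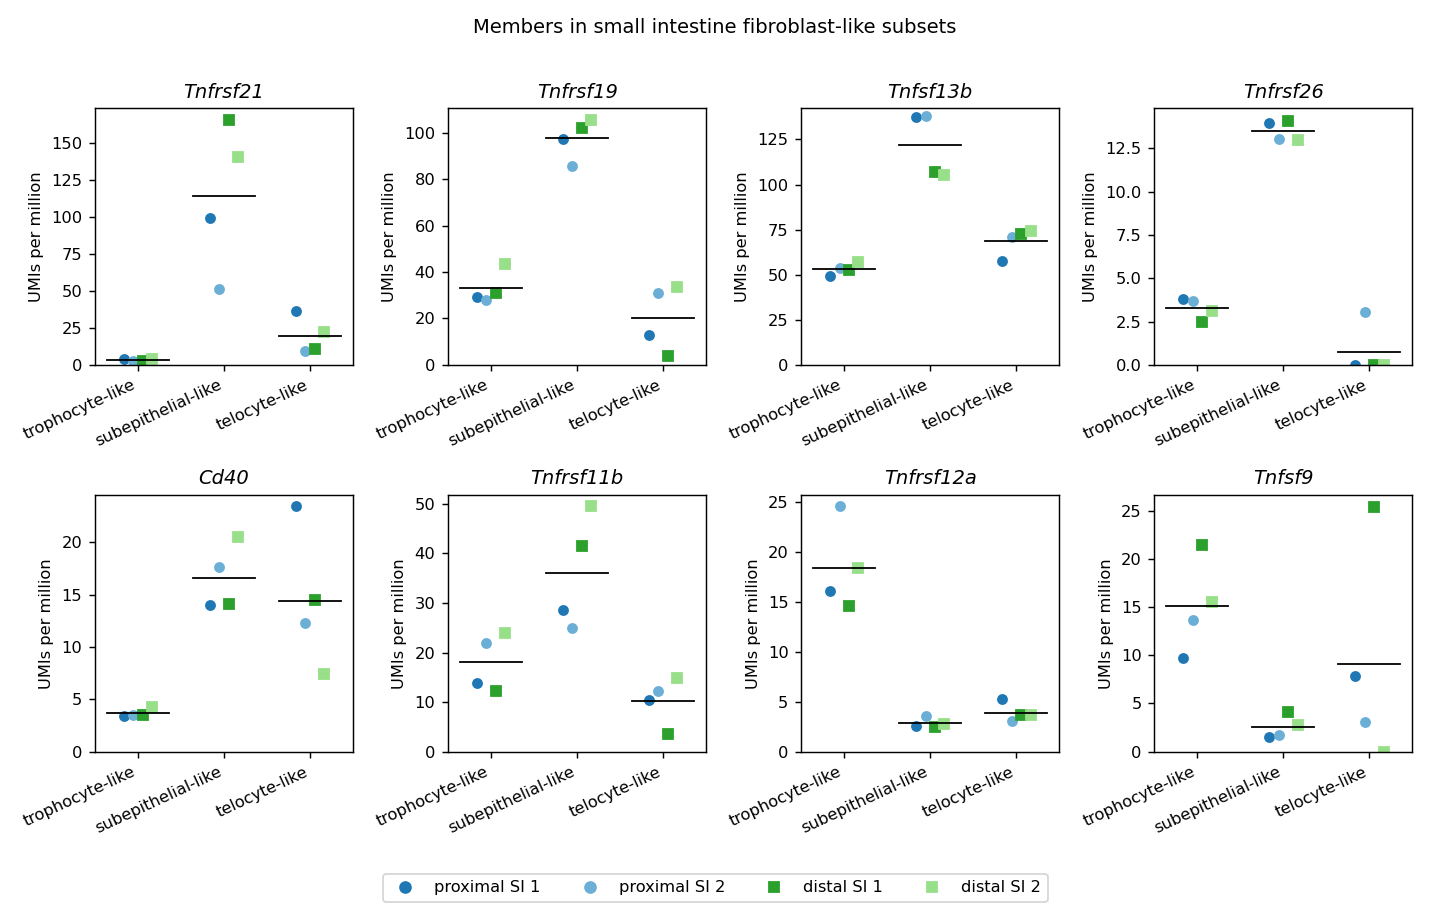
Level of 8 members in trophocyte-like, subepithelial fibroblast-like and villus tip telocyte-like cells of the small intestine, in CPM on a linear axis from 0; a point is 1 of 4 libraries and a bar is the mean. Tnfrsf21, Tnfrsf19 and Tnfsf13b peak in the subepithelial column, and Tnfrsf12a and Tnfsf9 in the trophocyte column.

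Pericytes wrap small vessels. Pericyte-like cells were compared with fibroblast-like cells in 5 libraries, without distal replicate 1, which had 12 such cells. Of 33 members tested, 4 were higher and 6 lower, beside 12.1% and 16.7% of all 18129 genes tested, with a median log2 difference of -0.55 over the members tested and -0.17 over all genes. In simulated counts with gene-wise dispersions this comparison made more false calls than its threshold allows, so its calls are less firm than their adjusted p. Tnfrsf21 was at 267 and 141 CPM in the proximal libraries, 175 in the second distal library, 156 for the cecum and 180.2 for the large intestine in pericyte-like cells, against 6.15 to 18.9 in fibroblast-like cells (log2 difference 4.25 ± 0.25 (SE), edgeR adjusted p = 1.1e-08). At least 1 Tnfrsf21 UMI was found in 58.7% of pericyte-like cells (54.4% to 62.9%) and in 4.39% of fibroblast-like cells (4.23% to 4.55%), at median depths of 5696.5 and 8225 UMIs. The intervals again pool the cells of all libraries and leave out the spread between them. Tnfsf9 was at 52.8 and 62 CPM in the proximal, 39.2 in the second distal library, 25.2 for the cecum and 28.4 for the large intestine, above every fibroblast-like library (log2 difference 2.22 ± 0.23 (SE), edgeR adjusted p = 4.8e-06). Its receptor Tnfrsf9 (CD137) rested on 24 UMIs (log2 difference 3.43 ± 0.61 (SE), edgeR adjusted p = 6.1e-04) and Tnf on 5, and the call of Tnf was lost without distal replicate 2, the cecum or the large intestine. Tnfrsf1b was at 0 to 3.3 CPM in pericyte-like cells (log2 difference -5.06 ± 0.42 (SE), edgeR adjusted p = 4.1e-07), while Tnfrsf1a had means of 105 and 117 and did not pass (edgeR adjusted p = 0.36). Tnfsf13b and Tnfrsf19 were lower in all 5 libraries (-3.39 ± 0.27, edgeR adjusted p = 2.6e-07 and -2.80 ± 0.31, edgeR adjusted p = 8.5e-06). Tnfsf4 had 0 UMIs in pericyte-like cells, which allows up to 0.93 CPM, against 0.688 to 3.36 in fibroblast-like cells. Its call, and those of Tnfsf12 and Tnfrsf26, were lost under 3 or more alternatives. Without distal replicate 2, 6 of 33 members were called, beside 4126 of all 17790 genes. By limma-voom 14 of 33 were, 9 higher and 5 lower, beside 7225 of all 18129 genes.

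The cecum and large intestine were compared with the 4 small intestinal libraries in fibroblast-like cells, to ask how members differ along the gut. Of 34 members tested, 9 were higher and 5 lower in the large bowel, beside 16.9% and 13.6% of all 19298 genes tested, with a median log2 difference of 0.08 over the members tested and 0.01 over all genes. Tnfrsf12a was at 13.6 and 18.3 CPM in the proximal, 13.8 and 15.7 in the distal libraries, 68.8 for the cecum and 42.5 for the large intestine (log2 difference 1.93 ± 0.21 (SE), edgeR adjusted p = 0.0021). Tnfrsf19 fell from the small intestine to the large bowel, at 38.5 and 37.6 CPM in the proximal, 34.8 and 45.2 in the distal libraries, 12 for the cecum and 7.52 for the large intestine (log2 difference -1.93 ± 0.23 (SE), edgeR adjusted p = 0.0024). Both differences also passed within each fibroblast-like subset tested, as given next.

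The mix of subsets differed between regions: trophocyte-like cells were 782 and 1609 in the large intestine and cecum and 3066 to 8427 in small intestinal libraries, and subepithelial fibroblast-like cells 1201 and 1702 against 152 to 529. The telocyte gate, whose cells had little Lgr5 in the large bowel and were left out of the other subsets, took 2045 cells for the large intestine and 272 for the cecum against 29 to 55. The comparison was therefore repeated within the subsets, a choice made after the data had been seen. Within trophocyte-like cells 9 of 30 members tested were higher and 4 lower (17.2% and 15.4% of all genes). Within subepithelial fibroblast-like cells 5 of 22 were higher and 3 lower (14.1% and 10.9%), and within universal fibroblast-like cells 1 of 12 was higher and 2 were lower (1.99% and 2.21%). Tnfrsf12a, Tnfrsf19 and Tnfrsf1b were called in the same direction in all 3 subsets. In trophocyte-like cells Tnfrsf12a was at 16.1 and 24.6 CPM in the proximal, 14.6 and 18.4 in the distal libraries, 95.7 for the cecum and 83.4 for the large intestine, and the log2 difference was 2.38 ± 0.19, edgeR adjusted p = 3.3e-04. In subepithelial fibroblast-like cells it was 3.09 ± 0.27, edgeR adjusted p = 3.5e-04, and in universal fibroblast-like cells 1.76 ± 0.38, edgeR adjusted p = 0.039. For Tnfrsf19 the values were -2.30 ± 0.22, edgeR adjusted p = 6.7e-04, -1.80 ± 0.33, edgeR adjusted p = 0.0076 and -2.25 ± 0.43, edgeR adjusted p = 0.026 in the same order. For Tnfrsf1b they were -0.85 ± 0.15, edgeR adjusted p = 0.0059, -0.73 ± 0.14, edgeR adjusted p = 0.0093 and -0.85 ± 0.18, edgeR adjusted p = 0.035. The edgeR adjusted p stands after each log2 difference and its SE.

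Ltbr was higher in the large bowel in fibroblast-like (log2 difference 0.56 ± 0.09 (SE), edgeR adjusted p = 0.0056), trophocyte-like (0.58 ± 0.10, edgeR adjusted p = 0.0062) and subepithelial fibroblast-like cells (0.48 ± 0.13, edgeR adjusted p = 0.03), but was not called in universal fibroblast-like cells. The decoy Tnfrsf11b was at 33 for the cecum and 47.6 for the large intestine, against 13.2 to 29.5 in the small intestine (log2 difference 1.15 ± 0.29 (SE), edgeR adjusted p = 0.026). It was also higher within trophocyte-like cells (1.42 ± 0.34, edgeR adjusted p = 0.018). Within subepithelial fibroblast-like cells its difference had the other sign and did not pass (log2 -0.62, edgeR adjusted p = 0.13), and the call was lost without the large intestine or any of 3 small intestinal libraries. Cd40 was higher by 1.01 ± 0.21 (SE) (edgeR adjusted p = 0.013), which was lost without the large intestine. It was higher within trophocyte-like cells (1.81 ± 0.23, edgeR adjusted p = 0.0018), whereas its log2 difference was -0.14 within both subepithelial and universal fibroblast-like cells. Tnfrsf21 did not differ across all fibroblast-like cells past the test (log2 difference -0.48 ± 0.44 (SE), edgeR adjusted p = 0.42). It rose toward the large bowel within trophocyte-like cells (1.53 ± 0.29, edgeR adjusted p = 0.0074), and fell within subepithelial fibroblast-like cells (-3.26 ± 0.47, edgeR adjusted p = 0.0028), with 9.42 and 11.5 CPM in the cecum and large intestine. Fibroblast markers summed to 21551 CPM for the cecum and 18522 for the large intestine in subepithelial fibroblast-like cells, against 13630 to 14762 in the small intestine, and blood endothelial markers to 22.6 and 13.4 against 63.2 to 146. The paper found trophocytes mostly in the small intestine. It found a cluster of subepithelial myofibroblasts in the cecum and large intestine but not in the small intestine. A telocyte cluster of the paper lay mostly in the large intestine, with few cells in the cecum and none in the small intestine. Whether the telocyte gate took the cells of that cluster was not tested. Whether the subepithelial or the trophocyte gate took the same kind of cells in both regions was not tested. A change within 1 kind of cell and a different mix of cells therefore cannot be told apart. The regional difference itself differed between subepithelial fibroblast-like and trophocyte-like cells for 4 of the 39 members, not all of which were tested. They were Tnfrsf21 (log2 -4.71, edgeR adjusted p = 0.00095), Cd40 (-1.88, edgeR adjusted p = 0.0036), Tnfrsf11b (-1.87, edgeR adjusted p = 0.031) and Tnfsf9 (2.47, edgeR adjusted p = 0.0025), subepithelial minus trophocyte-like. Of all 15880 genes tested, 5.76% were called higher and 3.66% lower. Members not tested in this way were Fasl, Cd40lg, Lta, Ltb, Tnf, Tnfsf14, Tnfrsf4, Tnfrsf8, Tnfrsf13b, Tnfrsf13c, Tnfrsf17, Tnfrsf18 and Tnfrsf25. The shares of all genes are over tested genes only, so 4 of 39 is not on the same base. Fas was higher in the large bowel in trophocyte-like (0.60 ± 0.20, edgeR adjusted p = 0.047) and subepithelial fibroblast-like cells (1.05 ± 0.22, edgeR adjusted p = 0.012). In trophocyte-like cells the regions overlapped, with 43.7 CPM for the large intestine and up to 44.3 in the small intestine. Fas did not pass in all fibroblast-like cells (log2 difference 0.44, edgeR adjusted p = 0.11) or in universal fibroblast-like cells (0.47, edgeR adjusted p = 0.22).

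The RANK ligand Tnfsf11 differed by region in fibroblast-like cells. In fibroblast-like cells it was at 0.211 and 0.0744 CPM in the proximal, 0.134 and 0.326 in the distal libraries, 0.954 for the cecum and 1.92 for the large intestine (log2 difference 3.00 ± 0.50 (SE), edgeR adjusted p = 0.007), and in subepithelial fibroblast-like cells at 2.47 and 4.43 in the cecum and large intestine against 0 to 0.83 in the small intestine (4.47 ± 0.90, edgeR adjusted p = 0.011). Tnfsf8 and Tnfrsf9 were also higher in the large bowel (1.93 ± 0.40, edgeR adjusted p = 0.014 and 1.63 ± 0.26, edgeR adjusted p = 0.0059), at means of 1.35 and 0.366 and 0.833 and 0.276 CPM. The call of Tnfsf8 was lost without the cecum. Tnfsf14, Tnfrsf13b and Tnfrsf17 were called lower and Tnfrsf18 and Tnf higher in the large bowel, at means under 1 CPM in both regions. The call of Tnf was lost under 12 of 14 alternatives, that of Tnfrsf18 under 10 of 15, that of Tnfrsf17 under 7 of 14 and that of Tnfsf14 under 3 of 15, among them leaving out the large intestine. The call of Tnfrsf13b was lost under 1 of 14, the distal libraries alone. Markers of T cells and ILCs, which express Tnfsf14, summed to 2.91 CPM for the cecum and 2.95 for the large intestine and to 4.35 to 5.98 in the small intestine in fibroblast-like cells, and their part in these calls was not tested. Markers of B and plasma cells, which express Tnfrsf13b and Tnfrsf17, summed to 1.98 and 1.91 CPM in fibroblast-like cells of the cecum and large intestine and to at least 3.73 in the small intestine. In free RNA, Tnfrsf13b was at 0.985 and 1.41 CPM in the cecum and large intestine against 6.15 to 19 in the small intestine. Tnfrsf17 was at 0.246 and 0.806 against 4.22 to 13.7, and Tnfrsf18, called higher, at 0 and 0.604 against 0.879 to 2.26. With 10% free RNA subtracted, 9 of 30 members tested were higher and 3 lower, beside 5156 of 18339 genes called. The part of these cells and of free RNA in the calls was not tested. With the distal libraries alone as the small intestinal side, 2 of 34 members were called, Tnfrsf12a and Tnfrsf19, beside 764 of all 18782 genes. Without the large intestine 9 of 36 were, beside 4982 of 19928 genes, and with all libraries 5876 of 19298 genes were called.

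**Figure D4:**
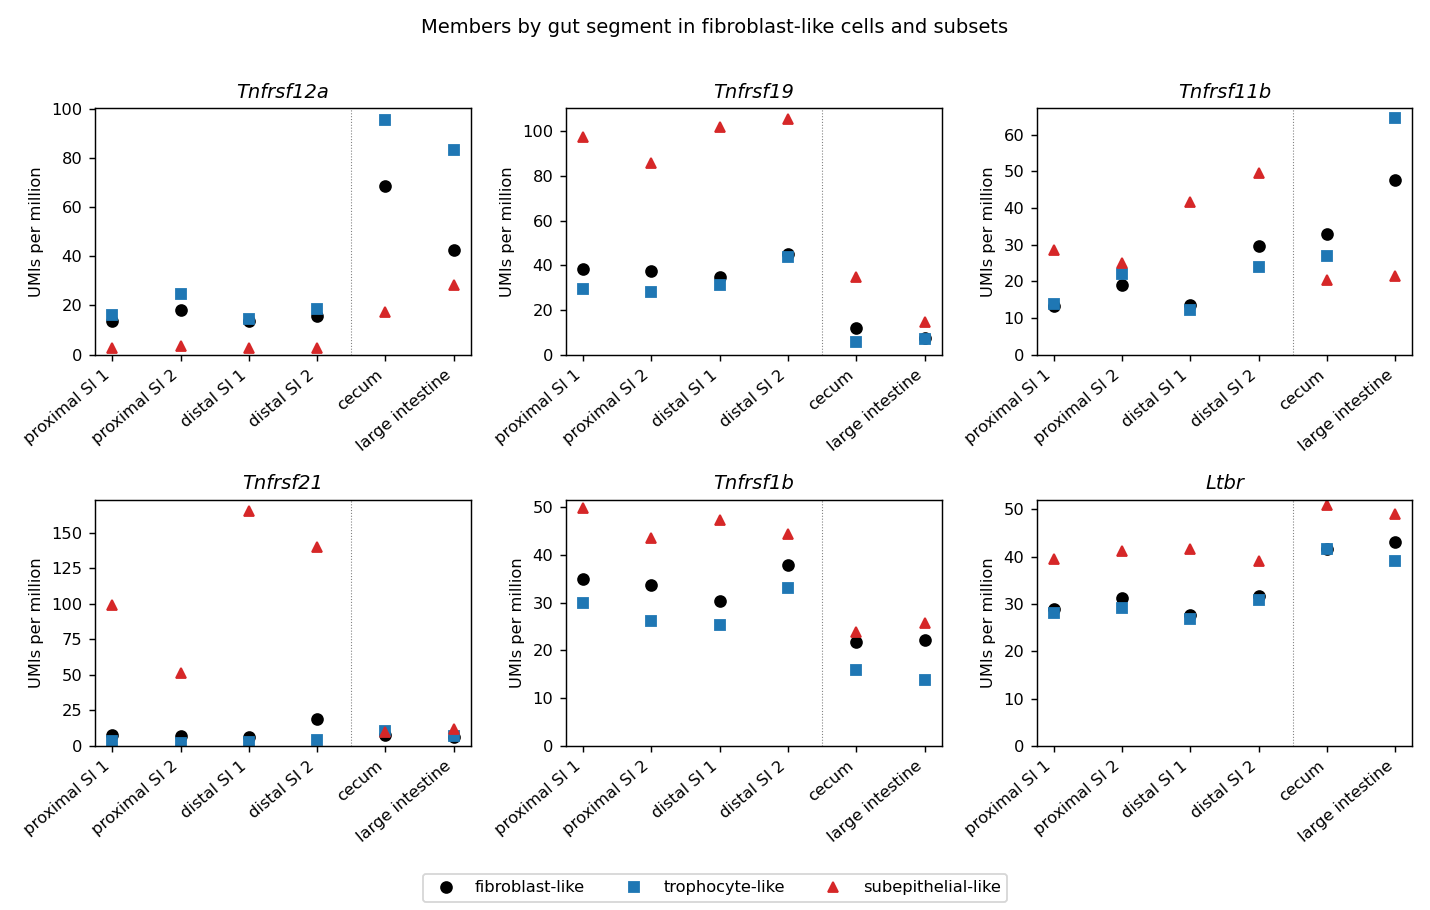
Level of 6 receptors by library, from the proximal small intestine to the large intestine, in all fibroblast-like cells (black), trophocyte-like cells (blue) and subepithelial fibroblast-like cells (red), in CPM on a linear axis from 0. To the right of the dotted line, Tnfrsf12a and Ltbr are higher and Tnfrsf19 and Tnfrsf1b lower in all 3 groups of cells, while Tnfrsf11b and Tnfrsf21 differ between subsets.

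The cecum and the large intestine have 1 library each, so their values were set side by side without a test. In fibroblast-like cells Tnfsf13b was 34.4 CPM for the cecum and 93.4 for the large intestine, on either side of the small intestinal range of 59.6 to 78.2. In universal fibroblast-like cells it was 20.1 and 179. In trophocyte-like cells Tnfsf13b was 25.9 and 38.5, both below the small intestinal 49.1 to 57.2. There the test of large bowel against small intestine called it lower (log2 difference -0.65 ± 0.15 (SE), edgeR adjusted p = 0.015). In subepithelial fibroblast-like cells it was 49.3 and 89.9, below the small intestinal 105 to 138. That difference did not pass (log2 -0.65 ± 0.24 (SE), edgeR adjusted p = 0.078). Tnfrsf26 was 8.8 for the cecum and 1.5 for the large intestine in subepithelial fibroblast-like cells. In LEC-like cells Tnfrsf12a was 33.2 and 16.8, both above the small intestinal range of 4.81 to 7.69, from 226 and 248 cells.

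Between the distal and the proximal small intestine, 2 libraries each, 0 of 34 members were called in fibroblast-like cells and 0 of 25 in LEC-like cells by edgeR. Of all genes, 0.0053% were higher and 0.0106% lower in fibroblast-like cells, and 0% in LEC-like cells. At an unadjusted p under 0.05, 2 of 34 members passed in fibroblast-like and 1 of 25 in LEC-like cells. The share of all genes at that unadjusted threshold was not counted, so these counts are not read as a result. By limma-voom and DESeq2, 0 members were called in both classes. Of all genes, limma-voom called 0 in both, and DESeq2 called 151 of 18139 in fibroblast-like and 26 of 15424 in LEC-like cells. With the replicate number as a block, edgeR called 2 members and 448 of 18871 genes in fibroblast-like cells, against 3 genes without it, and 0 members and 45 genes in LEC-like cells. Libraries of the same number carry the same hashtag antibodies, but nothing states that they share mice. Several members varied between replicates of 1 region, as did Tnfrsf11b in fibroblast-like cells at 13.5 and 29.5 CPM in the distal replicates. Tnfrsf21 there was at 6.28 and 18.9.

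Several ligands of the family had their highest class mean in the few immune-like cells of the sort. These cells are described from sums without a test, since the T cell- or ILC-like cells number 63 to 119 in each small intestinal library, and 9 and 15 in the cecum and large intestine. By flow cytometry the paper found tdTomato+ cells with the leukocyte protein CD45 rare and only among endothelial cells. It saw no tdTomato+ epithelial cells in the small intestine, and it removed clusters with few tdTomato+ cells as contaminants. That step was not taken here. Whether the immune-like, glia-like and epithelial-like cells had an active Tslp locus was not tested. Levels in T cell- or ILC-like cells come from the 4 small intestinal libraries. Cd40lg, the ligand of Cd40 on activated T cells, was at 161 and 261 CPM in the proximal and 175 and 251 in the distal replicates. It was at most 3.45 in myeloid-like cells, the next class by mean, and at most 0.82 in B or plasma cell-like cells. Tnfsf8 was at 184 and 228 CPM in the proximal and 224 and 234 in the distal replicates and Tnfsf11 at 89.8 and 204 CPM in the proximal and 136 and 111 in the distal replicates. Fasl, which triggers Fas, was at 87.5 and 129 CPM in the proximal and 47.1 and 108 in the distal replicates. All 4 ligands had their highest class mean here.

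Ltb was at 219 and 202 CPM in the proximal and 316 and 219 in the distal replicates in T cell- or ILC-like cells, Lta at 1.3 to 33.2 and Tnfsf14 (LIGHT), which also binds Ltbr, at 11.1 to 23. Tnf was at 19.4 to 64.2 in T cell- or ILC-like and 19.8 to 51.2 in myeloid-like cells. Among receptors of lymphocytes, Tnfrsf1b was at 332 and 324 CPM in the proximal and 247 and 283 in the distal replicates, Tnfrsf9 at 62.6 to 119, Tnfrsf18 (GITR) at 50.7 to 81.7, Tnfrsf4 (OX40) at 25.3 to 102 and Tnfrsf25 (DR3) at 13.9 to 28.7. Tnfrsf26 was at 30 to 46.7 and Tnfsf10 at 33.9 to 64.5.

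In B or plasma cell-like cells the receptors for BAFF and APRIL led. Tnfrsf13b (TACI) was at 291 and 259 CPM in the proximal, 219 and 289.7 in the distal libraries, 159 for the cecum and 135 for the large intestine, Tnfrsf17 (BCMA), typical of plasma cells, at 183 and 206 CPM in the proximal, 178 and 181 in the distal libraries, 234 for the cecum and 78.7 for the large intestine, and Tnfrsf13c (the BAFF receptor), typical of B cells, at 28.3 and 50.2 CPM in the proximal, 44.6 and 53.7 in the distal libraries, 119 for the cecum and 142 for the large intestine. The small intestinal libraries lay above the cecum and large intestine for Tnfrsf13b and below them for Tnfrsf13c and Cd40, which was at 57.5 and 15.2 against 2.05 to 7.91. The mix of B cells and plasma cells was not measured here. In myeloid-like cells, Tnfrsf11a was at 135 and 97.3 CPM in the proximal, 101 and 113 in the distal libraries and 68 in the large intestine, Cd40 at 28.4 to 106, Tnfrsf1b at 125 to 142, Tnfrsf21 at 65.2 to 111 and Tnfsf13b at 19.8 to 74.5 CPM over 5 libraries.

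**Figure D5:**
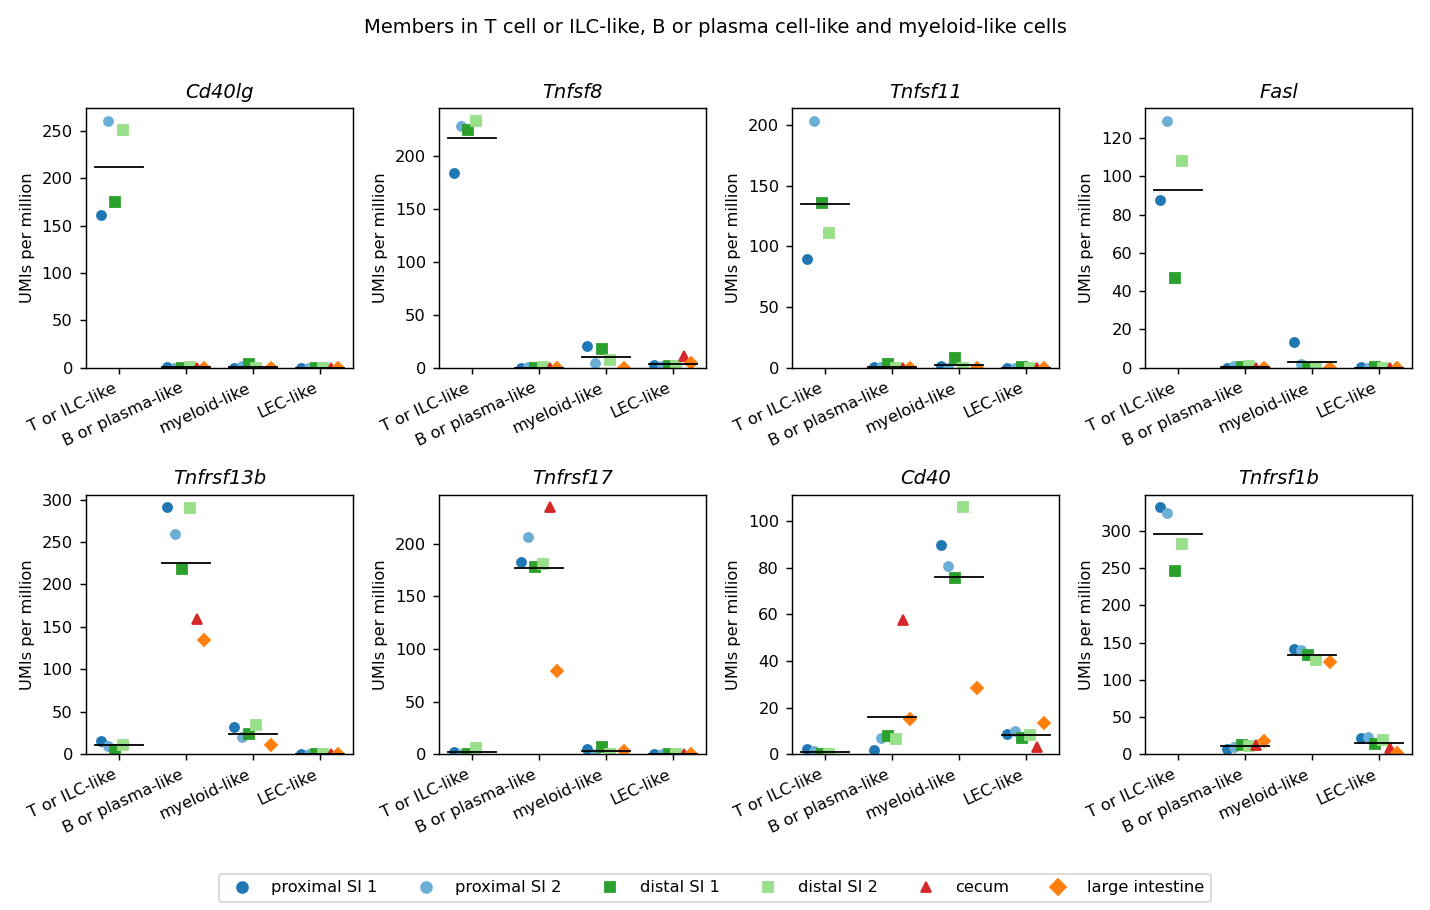
Level of 8 members in T cell- or ILC-like, B or plasma cell-like, myeloid-like and LEC-like cells, in CPM on a linear axis from 0; a point is 1 library with at least 20 cells of the class and a bar is the mean. Cd40lg, Tnfsf8, Tnfsf11 and Fasl lead in the T cell- or ILC-like column, Tnfrsf13b and Tnfrsf17 in the B or plasma cell-like column and Cd40 in the myeloid-like column.

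Smooth muscle- or myofibroblast-like cells had Tnfrsf19 at 60 and 43.8 CPM in the proximal, 82.8 and 84.5 in the distal libraries, 40.7 for the cecum and 67.4 for the large intestine and Tnfrsf11a at 0 to 25.9 CPM. Glia-like cells (143) reached 20 cells in 3 libraries and rest on few UMIs. Tnfrsf1a was at 48.8 and 65.4 CPM in the proximal libraries and 90.2 in the first distal library in these cells, from 49 UMIs, and Tnfsf9 at 16.3, 53.9 and 19.3 in the same order, from 23. Epithelial-like cells (75) reached 20 cells in the large intestine alone. In that 1 sum of epithelial-like cells Tnfsf15 was at 20.1 CPM. The 6 members that stayed under 10 CPM in every class averaged over at least 3 libraries were Tnfsf4, Tnfsf15, Tnfsf18, Tnfrsf8, Tnfrsf14 and Tnfrsf22. Tnfsf15 (TL1A) was highest in myeloid-like cells at 1.69 to 22.7 and Tnfrsf14 (HVEM), the LIGHT receptor, at 6.21 to 10.2 CPM.

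The downstream genes of the family were read from a list of 35 signalling genes and 12 NF-κB target genes, chosen by function, with earlier results of these data known. Between LEC-like and fibroblast-like cells 15 of 35 signalling genes tested were higher and 8 lower, beside 25.9% and 38% of all genes, with Traf1, an NF-κB-induced adaptor, at 3.70 ± 0.21, edgeR adjusted p = 5.1e-07 and the inhibitors Nfkbie and Nfkbia at 1.59 ± 0.16, edgeR adjusted p = 2.1e-05 and 1.53 ± 0.20, edgeR adjusted p = 1.3e-04. Traf4 and Traf3 were lower (-1.63 ± 0.25, edgeR adjusted p = 4.3e-04 and -0.85 ± 0.08, edgeR adjusted p = 1.4e-05). Of 11 target genes tested 3 were higher and 6 lower, with Tnfaip8 and Icam1 on the LEC-like side (1.95 ± 0.25, edgeR adjusted p = 1.1e-04 and 1.20 ± 0.22, edgeR adjusted p = 0.0013) and Cxcl13 and Il6 on the fibroblast-like side (-4.69 ± 0.18, edgeR adjusted p = 4.8e-08 and -3.63 ± 0.28, edgeR adjusted p = 3.7e-06). Against blood endothelial-like cells 4 of 35 signalling genes were higher and 17 lower, beside 27.3% and 28.3% of all genes, among them the death receptor kinase Ripk1 (-2.32 ± 0.13, edgeR adjusted p = 4.3e-07). Of 10 target genes tested 2 were higher and 6 lower, and the adhesion genes Madcam1 and Sele had means of 0.22 and 154 and 0.376 and 121 CPM in LEC-like and blood endothelial-like cells (edgeR adjusted p = 1.9e-09 and 4.4e-09). Subepithelial fibroblast-like cells had 6 of 35 signalling genes higher and 9 lower than trophocyte-like cells, beside 20% and 24.9% of all genes, with Casp8 at 1.03 ± 0.11, edgeR adjusted p = 6.6e-05 and the NF-κB inhibitor Tnfaip3 at -1.69 ± 0.13, edgeR adjusted p = 8.8e-06.

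Of 9 target genes tested between these subsets 2 were higher and 4 lower. Vcam1 was higher in subepithelial fibroblast-like cells (1.73 ± 0.14, edgeR adjusted p = 1.2e-05), and Il6 lower, at means of 0.338 and 44.5 CPM (edgeR adjusted p = 1.3e-07). Villus tip telocyte-like cells differed from subepithelial fibroblast-like cells in 1 of 30 signalling genes tested, beside 8.53% of all genes higher and 8.27% lower, namely Traf5, which was higher (1.06 ± 0.27, edgeR adjusted p = 0.012). Of 7 target genes tested 1 was higher, Tnfaip8 (1.05 ± 0.26, edgeR adjusted p = 0.011), and 4 were lower, namely Ccl2, Vcam1, Cxcl13 and Tnfaip2 (-4.71 ± 0.54, -2.48 ± 0.20, -1.29 ± 0.23 and -0.79 ± 0.16, with edgeR adjusted p = 1.2e-05, 3.1e-07, 7.1e-04 and 0.002), with a median of -0.79 over the tested targets. Pericyte-like cells had 5 of 35 signalling genes higher and 3 lower than fibroblast-like cells, beside 12.1% and 16.7% of all genes. Of 11 target genes tested 2 were higher, the chemokine Cxcl1 at means of 665 and 131 CPM (edgeR adjusted p = 3.6e-05) and Tnfaip8 at 109 and 32.1 (edgeR adjusted p = 0.0018), and 3 lower, namely Cxcl13, Vcam1 and Icam1 (-4.64 ± 0.33, -1.93 ± 0.20 and -1.27 ± 0.22, with edgeR adjusted p = 8.5e-08, 4.2e-06 and 4.6e-04). In the large bowel 10 of 35 signalling genes were higher and 2 lower in fibroblast-like cells, beside 16.9% and 13.6% of all genes, and 3 of 12 target genes were higher, Tnfaip8, Ccl2 and Tnfaip2 (1.81 ± 0.24, edgeR adjusted p = 0.0035, 1.38 ± 0.38, edgeR adjusted p = 0.032 and 0.49 ± 0.12, edgeR adjusted p = 0.023). Values in parentheses are log2 differences with SE and edgeR adjusted p.

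A further 7 genes belong to the family under other symbols. Eda, the ectodysplasin ligand, had means of 714 and 14 CPM in LEC-like and blood endothelial-like cells (log2 difference 5.49 ± 0.38 (SE), edgeR adjusted p = 2.3e-06). Its receptor gene Edar was at 61.6 and 2.87 in villus tip telocyte-like and subepithelial fibroblast-like cells (log2 difference 4.77 ± 0.55 (SE), edgeR adjusted p = 1.2e-05), and at 3.71 and 0.353 in fibroblast-like cells of the large bowel and the small intestine (3.41 ± 0.54, edgeR adjusted p = 0.0061). The cells that the telocyte gate took in the cecum and large intestine, which are not called telocyte-like here for their low Lgr5, were more numerous than in the small intestine, and their part in this difference was not tested. Eda2r, the other ectodysplasin receptor, was lower in subepithelial fibroblast-like than in trophocyte-like cells (-1.52 ± 0.11, edgeR adjusted p = 6.8e-06).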

How the data were processed

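Lamina propria cells of 6 libraries were read as unique molecular identifier (UMI) counts. The authors deposited these raw counts per barcode and gene as unfiltered 10x matrices made with Cell Ranger on mm39 with tdTomato added (version 8.1.0 in the submitters' processing notes, 8.0.1 in the file headers). DoubletFinder and SoupX, used in the study after this step, were not run here.

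Cells with 1000 to 7500 genes, 2500 to 40000 UMIs and at most 10% mitochondrial UMIs were kept. Cells with several hashtags (11.1%) and cells scoring for 2 lineages (4240) were removed as doublets, and no doublet caller was used. A cell's score for a lineage was the mean of its scaled marker levels, and a class needed a best score of at least 0.25 with the next at most 0.6 of it. Subsets needed 0.2, or 0.1 for subepithelial fibroblasts. These limits were set after the data had been seen, 79.7% of cells fell in a class, 7.34% lay within 10% of a lineage limit, and 22.3% of fibroblast-like cells near a subset limit. The members and gene lists were chosen with earlier results of these data known.

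UMIs were summed per library and class (at least 20 cells), given as CPM, and tested over all genes with edgeR 4.0.16 (quasi-likelihood, TMM, minimum count 10, Benjamini-Hochberg at 0.05), with library as a block between classes and none between regions. The SE of a log2 difference was its absolute value over the root of the F statistic. An upper limit at 0 stands for 3 UMIs, and intervals and limits cover counting error only. Members with a mean of at least 10 CPM in a class, or called in a comparison, were named, and up to 3 genes per direction for the other lists. The tests were run on simulated counts. With dispersions drawn along the trend, false calls stayed near the threshold. With gene-wise dispersions they exceeded it most for pericyte-like cells, and also for the subepithelial against trophocyte-like, distal against proximal and large bowel comparisons. Alternatives were limma-voom (limma 3.58.1), DESeq2 1.42.0, its size factors in edgeR, no filter, each library left out, doublets kept, 10% free RNA subtracted, stricter gates (0.3 and 0.5), blocks changed, the distal small intestine alone, and single fibroblast-like subsets, the last added after the data had been seen. Promoters came from RefSeq (GRCm38.p6) and gene coordinates from GENCODE (GRCm39).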

Additional observations from a re-analysis of the deposited data

Results flagged for a closer look

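Fas in fibroblast-like cells was at 44.4 CPM in distal replicate 1, against 34.2 to 35.3 in the other 3 small intestinal libraries. The gap was 0.892 of the range, which exceeds Dixon's 95% critical value for 4 values. This was 1 of 42 groups examined, and chance alone would mark about 1 in 20.

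For 4 of the 39 members, not all of which were tested, the regional difference was not the same in subepithelial fibroblast-like as in trophocyte-like cells. The regions were large bowel and small intestine, and the edgeR test was of the difference itself. Of all 15880 genes tested in this way, 5.76% were called higher and 3.66% lower. These shares are over tested genes only, while the 39 include members that were not tested. The value, subepithelial minus trophocyte-like on the log2 scale, was -4.71 for Tnfrsf21 (edgeR adjusted p = 0.00095), -1.88 for Cd40 (edgeR adjusted p = 0.0036), -1.87 for Tnfrsf11b (edgeR adjusted p = 0.031) and 2.47 for Tnfsf9 (edgeR adjusted p = 0.0025). The large bowel side of each rests on 1 library of the cecum and 1 of the large intestine. Fibroblast markers summed to 21551 CPM for the cecum and 18522 for the large intestine in subepithelial fibroblast-like cells, against 13630 to 14762 in the small intestine, and blood endothelial markers to 22.6 and 13.4 against 63.2 to 146. Whether this gate or the trophocyte gate took the same kind of cells in both regions was not tested.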

How the results depend on the processing

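Of 95 member calls over the 8 comparisons, 65 held under every alternative in which the member was tested and 30 were lost under at least 1. An alternative whose filter dropped the member was not counted as a loss. A further 26 pairs of member and comparison, not called with the main settings, were called under at least 1 alternative. Leaving out 1 library at a time, the number of members called was 25 to 30 for LEC-like against fibroblast-like cells (29 with all), 15 to 20 against blood endothelial-like cells (19), 14 to 16 for subepithelial fibroblast-like against trophocyte-like cells (17), 4 to 6 for villus tip telocyte-like cells (6), 6 to 10 for pericyte-like cells (10, and 6 without distal replicate 2), 9 to 14 for the large bowel (14, and 9 without the large intestine) and 0 to 0 for both comparisons of distal with proximal small intestine. The number of all genes called ranged, in the same order, from 11023 to 13153, 5559 to 7536, 5945 to 6624, 1153 to 1524, 4126 to 5190, 3081 to 6141, 0 to 20 (fibroblast-like) and 0 to 82 (LEC-like). For the large bowel, 2 of 34 members and 764 of 18782 genes were called against the distal libraries alone, 8 of 22 and 3403 of 13608 within subepithelial and 3 of 12 and 470 of 11179 within universal fibroblast-like cells, where fewer libraries or cells entered. The replicate numbers of the distal and proximal libraries are not stated to pair mice. With the replicate block, 2 members, Tnfsf15 and Tnfsf9, were called in fibroblast-like cells and 0 in LEC-like cells, while the number of all genes called went from 3 to 448 and from 0 to 45. The correlation of same-numbered deviations was 0.493 and 0.198, and it is equal for both pairs by construction. Without a filter on low counts, 1 member, Tnfrsf10b, was called between distal and proximal LEC-like cells. The cause was not tested for these changes.

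Changes of sign are listed only where the member was called with the main settings or under the alternative, and others occurred without a call. The sign of the log2 difference turned for Tnfsf11 in LEC-like against fibroblast-like cells with doublets kept (0.83), and under limma-voom for Tnfrsf18 (2.42), Tnfrsf17 (2.34) and Ltb (1.91) in pericyte-like cells, where they then passed (limma-voom adjusted p = 0.0078, 0.0063 and 0.027) and 14 of 33 members were called. For the large bowel it turned for Tnfrsf21 within trophocyte-like cells (1.53), for Cd40 (-0.14), Tnfrsf11b (-0.62) and Tnfsf9 (1.47) within subepithelial and for Cd40 (-0.14) within universal fibroblast-like cells. Stricter gates left too few villus tip telocyte-like cells and were not run there. With free RNA subtracted, 3 of 147 class levels moved by more than 1 SD: Tnfsf10 in blood endothelial-like cells from 203 to 219.7, Tnfrsf1b in myeloid-like cells from 133 to 144 and Tnfrsf1a in LEC-like cells from 54.1 to 46.8 CPM. The size of some log2 differences depended on the processing by far more than their SE. Over the alternatives for LEC-like against fibroblast-like cells, Tnfrsf11a ran from 7.40 to 15.3, Ltb from 5.25 to 12.5 and Tnfsf13b from -8.25 to -3.36. Tnfrsf1b in pericyte-like against fibroblast-like cells ran from -13.2 to -4.09. These calls held throughout, and other differences moved little, as did Tnfrsf1a in LEC-like cells (-1.40 to -1.12). Depth limits classes of few cells and members under 1 CPM.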
